A study of Rattus norvegicus with 9 samples.

Results

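The genes described here are those of the AP-1 transcription factor family, a set of 10 matched by symbol among the 22589 genes of each file: Fos, Fosb, Fosl1, Fosl2, Jun, Junb, Jund, Batf, Atf3 and Maff. All 10 were found in every library, and 9 had enough counts to be tested, Fosl1 being the exception, out of 14520 tested genes. The libraries come from the left tibias of female Sprague-Dawley rats that were 9 weeks old at purchase and were taken 24 weeks after an operation. In the RE/Ovx group (resistance exercise, rats 3, 5 and 8) both ovaries were removed and the rats climbed a ladder for 12 weeks and carried, at the end, 100% of their body weight. In the NE/Ovx group (no exercise, rats 6, 8 and 9) both ovaries were removed, and in the Sham group (rats 7, 8 and 12) a small piece of fat near the ovary was taken and the ovaries stayed. A rat number belongs to its group, so rat 8 of 1 group is not rat 8 of another. Skin, muscle, ligament and tendon were cut away, but marrow was not separated, so RNA of cells of bone, cartilage and marrow is mixed in each library.

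AP-1 is a dimer of basic leucine zipper (bZIP) proteins, made of a Jun protein with a Fos protein or of either with a relative such as Batf, Atf3 or a Maf protein, and it binds the DNA motif TGAGTCA or the closely related TGACGTCA. Fos, Fosb, Jun, Junb and Atf3 are immediate early genes, which cells transcribe within minutes of a growth factor, mechanical or stress stimulus through MAP kinases and serum response factor, and whose RNA decays fast. In bone, mice without Fos form no osteoclasts, Fosl1 and Fosl2 act in osteoblasts and matrix production, and Fos works with Nfatc1 downstream of RANKL to turn on osteoclast genes such as Acp5 and Calcr. The study picked Fos and Fosb from these same libraries, so their values here are not independent evidence of their direction. It also measured both by RT-qPCR in right tibias, apart from these libraries. There it reported Fos, Fosb and Acp5 higher in NE/Ovx than in Sham rats and lower in RE/Ovx than in NE/Ovx rats. Calcr was reported to move the opposite way. In plasma it reported the same rise and fall for tartrate-resistant acid phosphatase and a collagen fragment of bone resorption. Those measurements are not examined here.

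RefSeq windows of 300 bases around the start site (250 before and 50 after, build GRCr8) matched 7 of the 10 genes: Fosb, Fosl1, Fosl2, Junb, Jund, Batf and Maff. Fos, Jun and Atf3 had no matched window. The motif TGACGTCA, which reads the same on both strands and is the cyclic AMP response element bound by Atf and Creb proteins and by Jun dimers with Atf proteins, was in 2 of the 7, Maff and Jund, against 1.83% of all 33469 windows. TGAGTCA, searched on both strands, was in 0 of the 7 (4.63% of all windows), and so was the CArG box of serum response factor (1.64%). A TATA box (TATAAA, gene strand) was in Junb alone (8.8%). The Maff and Jund windows are shown for their match, in capitals, whose first base lies at position -51 from the start site in Maff and at -221 in Jund. The Fosb window, with no match, is shown because the results below turn on Fosb more than on any other gene of the family.
Maff promoter, chr7:112792537-112792836, plus strand: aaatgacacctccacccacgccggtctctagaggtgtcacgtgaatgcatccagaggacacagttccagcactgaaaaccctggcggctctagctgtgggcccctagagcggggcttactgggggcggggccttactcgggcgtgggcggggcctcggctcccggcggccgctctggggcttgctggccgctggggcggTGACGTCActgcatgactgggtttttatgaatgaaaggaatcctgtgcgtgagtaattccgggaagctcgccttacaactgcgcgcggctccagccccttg
Jund promoter, chr16:18769722-18770021, minus strand: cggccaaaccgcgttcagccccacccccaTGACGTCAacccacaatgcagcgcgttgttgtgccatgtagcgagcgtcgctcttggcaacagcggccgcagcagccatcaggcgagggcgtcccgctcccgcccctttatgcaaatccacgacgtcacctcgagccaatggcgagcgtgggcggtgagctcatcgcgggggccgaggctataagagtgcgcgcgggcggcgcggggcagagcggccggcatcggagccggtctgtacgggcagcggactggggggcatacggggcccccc
Fosb promoter, chr1:88089135-88089434, minus strand: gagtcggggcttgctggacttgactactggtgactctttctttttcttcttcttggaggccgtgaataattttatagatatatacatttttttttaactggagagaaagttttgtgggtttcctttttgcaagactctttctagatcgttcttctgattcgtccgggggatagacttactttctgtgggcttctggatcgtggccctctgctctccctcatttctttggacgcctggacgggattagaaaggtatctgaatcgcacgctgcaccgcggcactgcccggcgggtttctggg

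The libraries summed to between 12297992 and 16671533 counts, and NE/Ovx rat 9, to which many of the results below return, was the deepest. Markers of bone were present: all 9 osteoblast and osteocyte genes had counts in every library, with summed levels of 16921 to 26986 CPM (counts divided by the TMM-scaled library total) in RE/Ovx rats, 15450 to 25353 in NE/Ovx rats and 5931 to 8921 in Sham rats. Of 7 osteoclast markers matched, Dcstamp, a gene of osteoclast fusion, was at 0 in some libraries. Muscle had not been removed completely: the 8 skeletal muscle markers, none at 0, summed to 2106 to 3428 CPM in RE/Ovx rats, 5018 to 5867 CPM in NE/Ovx rats and 1995 to 6396 CPM in Sham rats. Of the 14520 tested genes, 1.23% passed an adjusted p of 0.05 for NE/Ovx against Sham (edgeR, Benjamini-Hochberg). For RE/Ovx against Sham 8.06% did, and 0% did for RE/Ovx against NE/Ovx. In this last comparison 767 of the 14520 tested genes had an unadjusted p under 0.05. That share is close to the 0.05 which such a limit lets through when no gene differs. DESeq2 on all libraries adjusted 5 genes past the threshold.

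Compared per length as FPKM, the family fell into 5 abundant and 5 scarce genes, apart from Fosb in 1 rat. Over the 9 rats the median FPKM was 50.7 for Jund (42.3 to 59.8), 34.6 for Fosl2 (26.6 to 46.3), 18.1 for Junb (15.8 to 28.6), 16.9 for Fos (11.2 to 52.6) and 15.7 for Jun (9.33 to 22.3). Neighbours in this order overlapped in range over the rats, although Jund was above Fosl2 within every rat. The place of Fosl2 also rests on the length of 0.977 kb implied by its FPKM and counts. The scarce genes were Batf at 2.76 (1.65 to 3.38), Fosb at 2.62 (1.92 to 19.5), Maff at 1.34 (0.924 to 1.88), Atf3 at 1.34 (1.06 to 3.90) and Fosl1 at 0.253 (0.0721 to 0.741). Among these, Batf, Fosb and Atf3 overlapped with one another in range, and Maff overlapped with Batf and Atf3. The lowest Fosb value lay just above the highest of Maff. In NE/Ovx rat 9 this order changed: Fos, at 52.6 FPKM, stood above Jund at 50.7 FPKM, and Fosb, at 19.5 FPKM, entered the range of the abundant genes.

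Summed over the 10 genes, the level was 127 FPKM in RE/Ovx rat 3, 144 in rat 5 and 154 in rat 8. It was 139 FPKM in NE/Ovx rat 6, 147 in rat 8 and 220 in rat 9, and 162 FPKM in Sham rat 12, 134 in rat 7 and 124 in rat 8. Group means were 142 ± 13.5 in RE/Ovx rats, 169 ± 44.3 in NE/Ovx rats and 140 ± 19.8 in Sham rats (SD, n = 3 each). NE/Ovx rat 9 was thus far above the other libraries, and Fos with Fosb made up 32.8% of its sum, against 9.69% to 16.0% in the other 8 rats. The ratio of Fosb to Fos, which does not depend on library size, was 0.371 in that rat and 0.128 to 0.198 in the others.

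**Figure D1:**
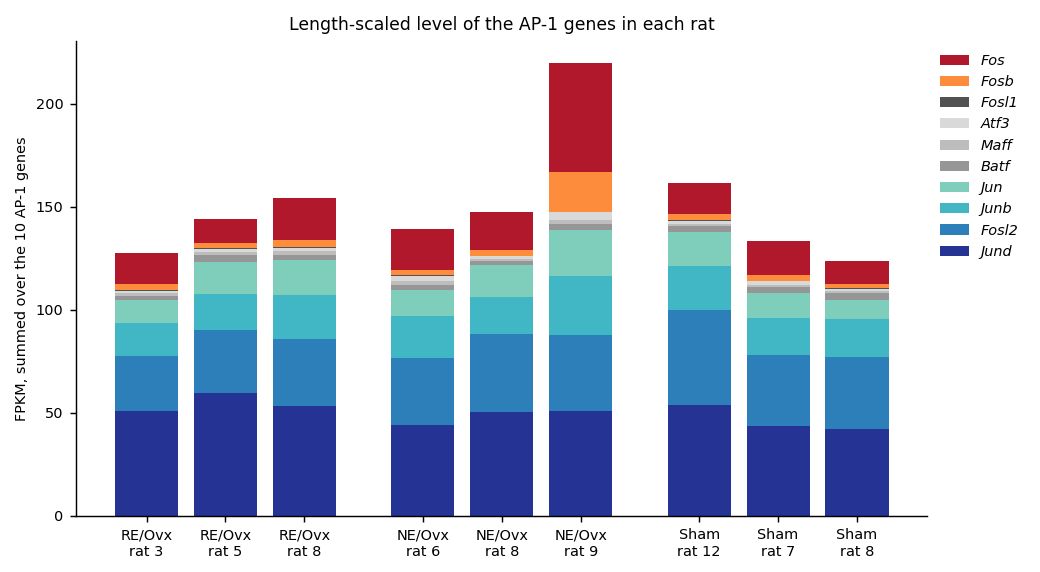
Stacked bars of FPKM for the 10 AP-1 genes in each rat, RE/Ovx on the left, NE/Ovx in the middle and Sham on the right. The bar of NE/Ovx rat 9 reaches 220, with Fos at 52.6 and Fosb at 19.5, and the other 8 bars end between 124 and 162.

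Fos, the partner of Jun proteins that osteoclast formation needs, was at 23.6, 18.7 and 30.7 CPM in RE/Ovx rats 3, 5 and 8, at 31.4, 28.4 and 84.5 CPM in NE/Ovx rats 6, 8 and 9, and at 25.2, 28.0 and 18.0 CPM in Sham rats 12, 7 and 8. A single rat, NE/Ovx rat 9, was far above the rest, at 2.70 times the next highest library, while NE/Ovx rats 6 and 8 lay just above the highest Sham rat. Group means were 24.3 ± 6.03 CPM in RE/Ovx rats, 48.1 ± 31.6 in NE/Ovx rats and 23.7 ± 5.17 in Sham rats (SD, n = 3 each). Rat 9 held 58.6% of the NE/Ovx sum, and without it the NE/Ovx mean was 29.9 CPM.

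Fosb, an inducible close relative of Fos, was at 9.55, 6.72 and 11.5 CPM in RE/Ovx rats 3, 5 and 8, at 8.22, 9.20 and 64.2 CPM in NE/Ovx rats 6, 8 and 9, and at 8.75, 8.59 and 6.29 CPM in Sham rats 12, 7 and 8. NE/Ovx rats 6 and 8 lay within the range of the RE/Ovx rats, and rat 9 was 5.59 times the next highest library. The NE/Ovx mean was 27.2 ± 32.1 CPM (SD, n = 3), of which rat 9 gave 78.7%, and 8.71 CPM without it. The means were 9.26 ± 2.40 CPM in RE/Ovx rats and 7.88 ± 1.38 CPM in Sham rats (SD, n = 3 each). These shares are uncommon but not unique: of 13877 tested genes with a mean of at least 1 CPM, 1.23% had an NE/Ovx rat with a share as large as that of Fos and 0.259% one as large as that of Fosb. The median gene had 36.6% of the NE/Ovx sum in its highest rat.

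Fosl2, a Fos protein of osteoblasts that lacks the strong activation domain of Fos, showed another order of the groups. It was at 25.8, 29.3 and 30.5 CPM in RE/Ovx rats 3, 5 and 8, at 31.3, 36.8 and 36.8 CPM in NE/Ovx rats 6, 8 and 9, and at 46.4, 35.2 and 34.4 CPM in Sham rats 12, 7 and 8. All RE/Ovx rats were below all others, and no rat held more than 40.0% of its group's sum. Fosl1, a relative with a role in matrix production by osteoblasts, had 5, 16 and 3 counts in the RE/Ovx rats, 5, 6 and 2 in the NE/Ovx rats and 10, 10 and 8 in the Sham rats. It was too scarce to pass the filter on low counts, and RE/Ovx rat 5 alone held 69.8% of the RE/Ovx sum in CPM. Fitted without the filter, its log2 fold change was -1.25 for NE/Ovx against Sham (SE 0.74, adjusted p = 0.433).

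Among the Jun genes, Jun, the classic partner of Fos, was at 35.1, 48.1 and 50.3 CPM in RE/Ovx rats 3, 5 and 8, at 39.1, 48.5 and 69.8 CPM in NE/Ovx rats 6, 8 and 9, and at 51.7, 39.0 and 29.1 CPM in Sham rats 12, 7 and 8. Junb, which can oppose Jun, was at 28.1, 31.3 and 37.3 CPM in the RE/Ovx rats, at 36.9, 31.0 and 51.7 CPM in the NE/Ovx rats and at 39.2, 33.6 and 32.6 CPM in the Sham rats, in the same order of rats. Both had their highest value of all libraries in NE/Ovx rat 9, at 1.35 and 1.32 times the next highest, and the groups overlapped. Jund, the constitutively expressed Jun gene, was at 85.0 to 99.6 CPM in RE/Ovx rats, 74.1 to 86.2 CPM in NE/Ovx rats and 71.6 to 92.6 CPM in Sham rats, and rat 9 did not stand out in it.

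Atf3, a stress-induced repressor that pairs with Jun proteins, was at 2.29, 2.06 and 2.76 CPM in RE/Ovx rats 3, 5 and 8, at 5.36, 2.49 and 7.45 CPM in NE/Ovx rats 6, 8 and 9, and at 2.50, 3.37 and 2.01 CPM in Sham rats 12, 7 and 8. Here NE/Ovx rats 6 and 9 were above every other library and NE/Ovx rat 8 lay among the others. Rat 9 gave 48.7% of the NE/Ovx sum, whose mean was 5.10 ± 2.49 CPM with it (SD, n = 3) and 3.93 CPM without it. Batf, a partner of Jun proteins in lymphocytes, was at 2.29 to 3.36 CPM in RE/Ovx rats, 1.73 to 2.97 CPM in NE/Ovx rats and 3.08 to 3.63 CPM in Sham rats, so that all NE/Ovx rats were below all Sham rats. Maff, a small Maf protein without an activation domain, was at 2.76 to 4.37 CPM in RE/Ovx rats, 2.70 to 4.61 CPM in NE/Ovx rats and 2.26 to 3.33 CPM in Sham rats.

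**Figure D2:**
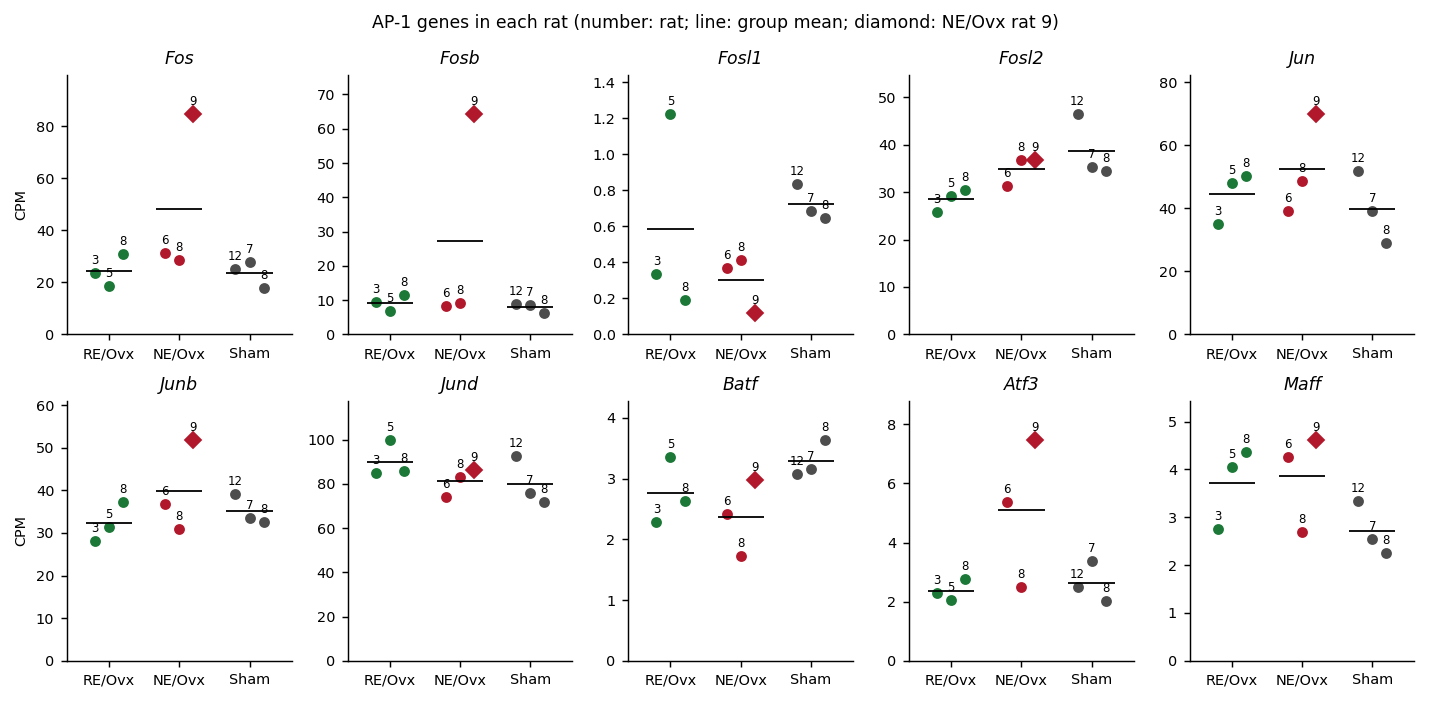
CPM of each AP-1 gene in every rat, with RE/Ovx left, NE/Ovx in the middle and Sham right; numbers name the rat, lines are group means and the diamond is NE/Ovx rat 9. For Fos (84.5) and Fosb (64.2) the diamond lies far above all other points, and the NE/Ovx mean lies between it and the other 2 NE/Ovx rats.

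Across the family, the highest rat of the NE/Ovx group was rat 9 for 8 of the 10 genes and rat 8 for 2. It held between 35.1% (Fosl2) and 78.7% (Fosb) of the group sum, with a median of 43.8%, and more than 50% for 2 genes. In the RE/Ovx group the highest rat was rat 8 for 7 genes and rat 5 for 3, with a median share of 39.0% and more than 50% for Fosl1 alone. In the Sham group rat 12 was highest for 7 genes, with a median share of 38.9% and never more than 43.1%.

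The first comparison, NE/Ovx against Sham, asks what ovariectomy changed. Of the 9 tested AP-1 genes 0 passed the adjusted threshold with edgeR (1.23% of all tested genes did), and 3 passed the thresholds of the study, which ask for an unadjusted p under 0.05 and a ratio of more than 1.2 or less than 0.83 (17.9% of all tested genes passed these). These 3, Fos, Fosb and Atf3, were higher in NE/Ovx rats, as were 11.3% of all tested genes at these thresholds. The log2 fold change was 1.02 for Fos (SE 0.39, adjusted p = 0.178), 1.79 for Fosb (SE 0.69, adjusted p = 0.184) and 0.95 for Atf3 (SE 0.38, adjusted p = 0.198). The groups did not overlap for Fos, higher in NE/Ovx rats, and for Batf, lower (-0.47, SE 0.28, adjusted p = 0.373), while 13.9% of all tested genes were higher and 11.4% lower without overlap. The other log2 fold changes were 0.51 for Maff, 0.40 for Jun, 0.18 for Junb, 0.02 for Jund and -0.14 for Fosl2. With limma on log2(FPKM + 1) and on log2(FPKM + 0.1) the Fosb difference was 0.97 and 1.14 with an unadjusted p of 0.113 and 0.106, so that Fosb lost its call at the thresholds of the study. The median over the 9 genes was 0.40, against 0.0029 over all tested genes.

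Without NE/Ovx rat 9 the log2 fold change was 0.33 for Fos (SE 0.23, adjusted p = 0.46), 0.14 for Fosb (SE 0.26, adjusted p = 0.791) and 0.57 for Atf3 (SE 0.38, adjusted p = 0.45), the median over the 9 genes was 0.14, and 0 passed the thresholds of the study, although 17.3% of all tested genes still did. Junb and Jund then changed sign, to -0.05 and -0.03. Without Sham rat 8, the lowest Sham rat for Fos, Fosb and Atf3, the count was also 0, at log2 fold changes of 0.85, 1.65 and 0.79. Without either of the other Sham rats it was 2, and the genes differed: Fos and Jun without Sham rat 12, and Fos and Atf3 without Sham rat 7. Without NE/Ovx rat 6 it was 3 (Fos, Fosb and Jun), and without NE/Ovx rat 8 it was 4 (Fos, Fosb, Atf3 and Maff). Among the rats left out in turn, rat 9 moved the Fos, Fosb and Atf3 differences most. DESeq2 on all libraries gave no p for Fosb, because the Cook's distance of NE/Ovx rat 9 was 10.92 and its cutoff is 9.78. The same fit gave Fos an unadjusted p of 0.00586 (adjusted p = 0.069), and DESeq2 on the NE/Ovx and Sham rats alone gave an unadjusted p of 0.063 for Fos and 0.0591 for Fosb. That fit, like every DESeq2 fit on 2 groups below, used no filter on low counts. Markers of other cells moved with this comparison: 8 adipocyte genes summed to 400 to 502 CPM in NE/Ovx rats and 138 to 269 CPM in Sham rats, and 9 neutrophil genes to 5043 to 5910 CPM in NE/Ovx rats and 6879 to 11819 CPM in Sham rats. The sums of 6 cartilage genes were 1310 to 2075 CPM in NE/Ovx rats and 615 to 1219 CPM in Sham rats. Those of 9 B cell genes were 550 to 941 CPM in NE/Ovx rats and 157 to 464 CPM in Sham rats, and those of 6 megakaryocyte genes 465 to 575 CPM in NE/Ovx rats and 584 to 903 CPM in Sham rats. The osteoblast and osteocyte sums, given above, did not overlap either, but Col1a1 made up most of each. It gave 23781 of 25353 CPM in NE/Ovx rat 8 and 5244 of 5931 CPM in Sham rat 12. Of the 9 osteoblast and osteocyte genes 7 had positive and 2 negative log2 fold changes. Without overlap 2 of them were higher, against 13.9% of all tested genes. Of all the marker genes in these sums 1 megakaryocyte gene was at 0, in every library, and the part of these cells in the AP-1 values was not tested.

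The second comparison, RE/Ovx against NE/Ovx, asks what exercise changed after ovariectomy. It uses the same NE/Ovx rats as the first, so a high NE/Ovx rat enters both with opposite sign and the 2 comparisons are not separate evidence. Of the 9 tested genes 0 passed the adjusted threshold and 3 passed the thresholds of the study, all lower in RE/Ovx rats, against 3.15% of all tested genes lower at these thresholds. They were Atf3 (log2 fold change -1.10, SE 0.38, adjusted p = 0.921), Fos (-0.98, SE 0.39, adjusted p = 0.924) and Fosb (-1.56, SE 0.68, adjusted p = 0.924). Fosl2 was lower in RE/Ovx rats without overlap (-0.29, SE 0.14, adjusted p = 0.924), as were 6.84% of all tested genes. Values were -0.31 for Junb, -0.24 for Jun, -0.05 for Maff, 0.15 for Jund and 0.21 for Batf, and the median over the 9 genes was -0.29, against 0.0079 over all tested genes. The genes past the thresholds of the study differed between tools. With edgeR on the 2 groups they were Atf3, Fos and Fosl2, with an unadjusted p of 0.0254 for Fosl2 and 0.0658 for Fosb. With DESeq2 on the 2 groups they were Atf3 and Fosl2, with an unadjusted p of 0.0354 for Fosl2, 0.0704 for Fos and 0.101 for Fosb. With limma on log2(FPKM + 1) and on log2(FPKM + 0.1) Atf3 alone passed, and the Fosb difference was -0.77 and -0.87.

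Without NE/Ovx rat 9 the log2 fold change was -0.29 for Fos (SE 0.23), 0.09 for Fosb (SE 0.25) and -0.72 for Atf3 (SE 0.38), with adjusted p between 0.791 and 0.958, and the median over the 9 genes was 0.02. The count at the thresholds of the study was then 0 (6.02% of all tested genes passed), and Fosb, Jun and Maff changed sign. The count was also 0 without RE/Ovx rat 5, at log2 fold changes of -0.83 for Fos, -1.38 for Fosb and -1.02 for Atf3. It was 1 without RE/Ovx rat 3 (Atf3) and 2 without RE/Ovx rat 8 (Fos and Atf3). Without either NE/Ovx rat 6 or 8 it was 4, namely Fos, Fosb and Atf3 with Fosl2 (without rat 6) or Junb (without rat 8). Skeletal muscle markers moved with this comparison, since their sums in RE/Ovx and NE/Ovx rats, given above, did not overlap. In NE/Ovx rat 9 the sum was 5378 CPM, between those of the other NE/Ovx rats. Adipocyte sums did not overlap either, at 508 to 708 CPM in RE/Ovx rats and 400 to 502 CPM in NE/Ovx rats. Nor did those of 9 T and NK cell genes, of which 1 was at 0 in at least 1 library, at 156 to 169 CPM in RE/Ovx rats and 175 to 188 CPM in NE/Ovx rats. Most single T and NK cell genes did not follow their sum. Of the 8 tested, 5 had positive and 3 negative log2 fold changes, with a median of 0.20. The part of all these cells in the result was not tested. In bulk bone, fewer cells that carry an RNA and less RNA per cell cannot be told apart.

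**Figure D3:**
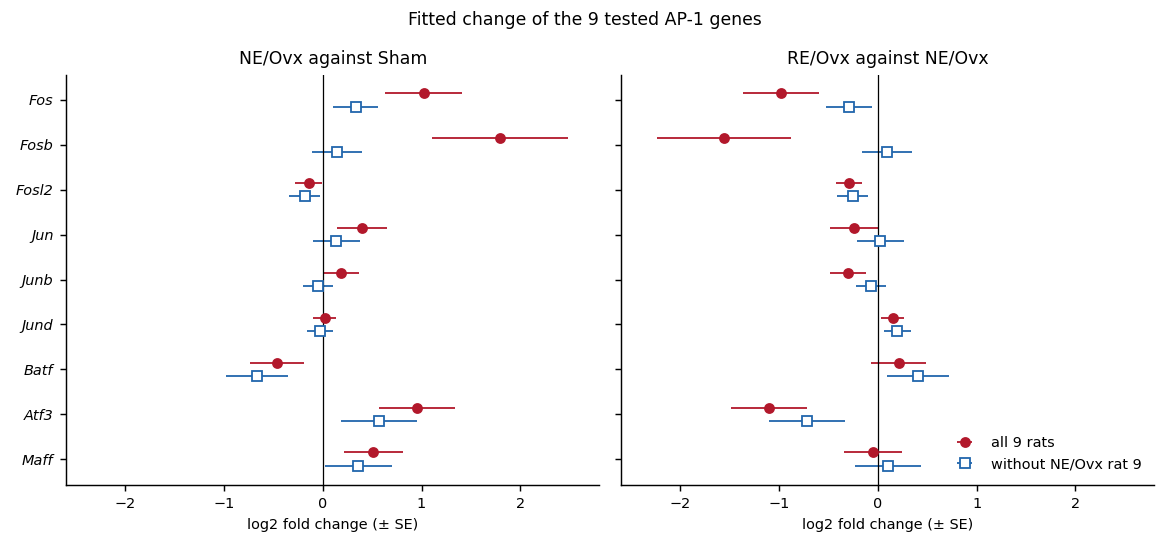
Log2 fold change with its SE for the 9 tested AP-1 genes, NE/Ovx against Sham on the left and RE/Ovx against NE/Ovx on the right; filled circles use all 9 rats and open squares leave out NE/Ovx rat 9. For Fosb the value is 1.79 against 0.14 on the left and -1.56 against 0.09 on the right, while Fosl2 is at -0.29 against -0.25 on the right.

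The third comparison, RE/Ovx against Sham, does not use the NE/Ovx rats except in the estimate of spread. Fos differed by 0.04 on the log2 scale (SE 0.39), Fosb by 0.24 (SE 0.70) and Atf3 by -0.15 (SE 0.40), all smaller than their SE. Of the 9 tested genes 0 passed the adjusted threshold (8.06% of all tested genes did), and 1 passed the thresholds of the study, Fosl2, lower in RE/Ovx rats as were 9.17% of all tested genes. Its log2 fold change was -0.44 (SE 0.14, adjusted p = 0.0778), all RE/Ovx rats were below all Sham rats (as for 13% of all tested genes), and without Sham rat 12 it was -0.29 (adjusted p = 0.189). DESeq2 on all libraries put Fosl2 past the threshold (adjusted p = 0.0378), and over the rats left out in turn the edgeR adjusted p ran between 0.0724 and 0.189. Without Sham rat 12 Jund, higher in RE/Ovx rats by 0.29 (SE 0.11, adjusted p = 0.149), also passed the thresholds of the study. The remaining log2 fold changes were 0.46 for Maff, 0.17 for Jund, 0.16 for Jun, -0.12 for Junb and -0.26 for Batf.

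NE/Ovx rat 9 was the highest of the 9 rats for 6 of the 9 tested AP-1 genes, Fos, Fosb, Jun, Junb, Atf3 and Maff, and for 751 of the 13877 genes with a mean of at least 1 CPM (5.41%). By the ratio to the next highest rat, 0 of these genes exceeded Fosb and 4 exceeded Fos. It was also the highest rat for 10 of 27 other immediate early genes, with ratios to the next highest of 1.79 for Egr2, 1.64 for Egr1, 1.55 for Nr4a1 and 1.47 for Nr4a3, zinc finger and nuclear receptor genes induced by the same stimuli. For Jund, Fosl2 and Batf, and for early genes such as Myc, Btg2 and Ier2, rat 9 lay within the range of the others. Heat shock genes, a list of 9, summed to 822 CPM in it, against 557 to 864 CPM in the other 8 rats, and the 7 osteoclast markers to 2186 CPM, against 1366 to 2210 CPM. Of the 9 heat shock genes 1, the chaperone gene Hsph1, fell for RE/Ovx against Sham (-0.51, SE 0.11, adjusted p = 0.0259), where 8.06% of all tested genes passed. For NE/Ovx against Sham and RE/Ovx against NE/Ovx 0 passed, against 1.23% and 0% of all tested genes. The part of these values in the result was not tested.

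**Figure D4:**
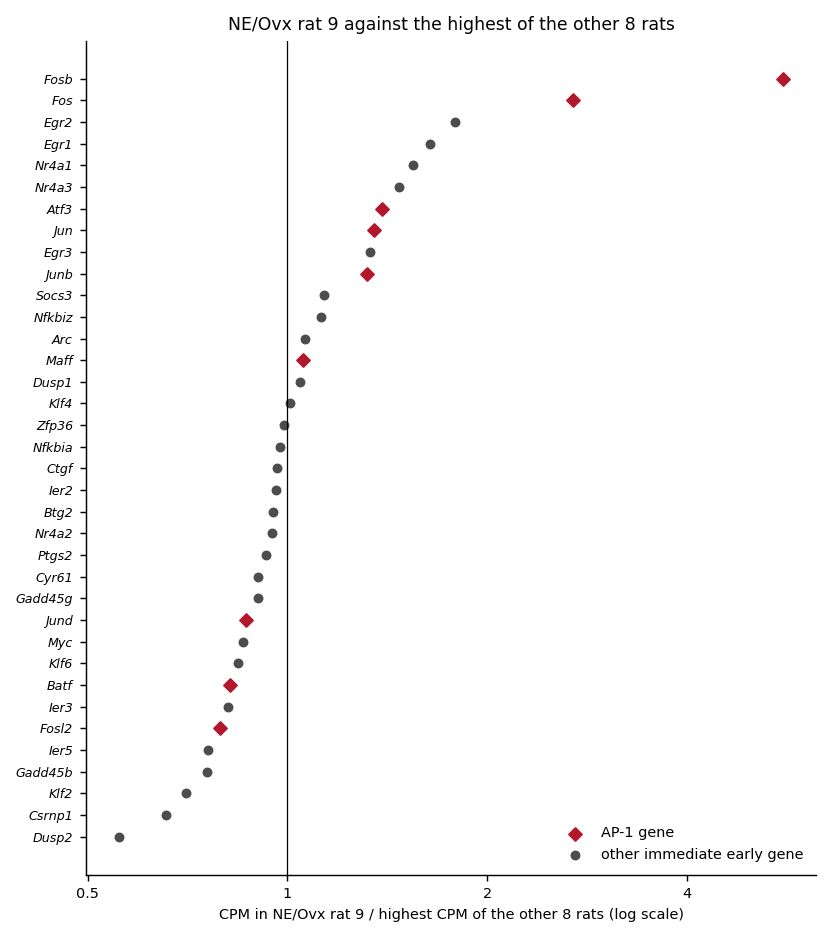
Ratio of the CPM in NE/Ovx rat 9 to the highest CPM of the other 8 rats, on a log scale, for 9 AP-1 genes (diamonds) and 27 other immediate early genes (circles). Fosb at 5.59 and Fos at 2.70 lie to the right of all others, and 6 AP-1 genes and 10 others lie above 1.

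The genes outside the family most like Fos over the 9 rats, by Pearson's r of log2 CPM, were LOC100912163 (0.87), LOC103690128 (0.86), LOC103689996 (0.85), Poll, a DNA repair polymerase (0.85), RGD1563365 (0.85), Adamts1, a secreted protease (0.85), Nr4a1 (0.84) and Golga7 (0.83). Within the family r with Fos was 0.96 for Fosb, 0.89 for Atf3, 0.84 for Junb and 0.73 for Jun, but 0.23 for Fosl2 and 0.02 for Jund. These values describe 9 libraries of which 1 stands apart. Over the other 8 rats r was 0.79 for Fosb, 0.74 for Atf3, 0.44 for Junb, 0.41 for Jun, 0.12 for Fosl2 and -0.20 for Jund. Outside the family it was 0.82 for Adamts1, 0.74 for LOC103690128 and 0.71 for Nr4a1, and it was 0.34 for LOC100912163 and 0.35 for LOC103689996.

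Of 27 other immediate early genes tested, 0 passed the adjusted threshold in any comparison with edgeR, with 6, 4 and 9 at an unadjusted p under 0.05 in the 3 comparisons, taken as ordered above. Of all 14520 tested genes, 2975, 767 and 3710 had such an unadjusted p. With DESeq2 on 9 libraries 2 passed for NE/Ovx against Sham, Csrnp1 and Dusp2, 0 in the second comparison and 5 for RE/Ovx against Sham. With DESeq2 on the 2 groups the counts were 3, 1 and 4. Over all genes DESeq2 on 9 libraries passed 998, 5 and 1964, and DESeq2 on the 2 groups 885, 151 and 1472. At the thresholds of the study 4 were higher and 2 lower for NE/Ovx against Sham, 22.2% of the list against 17.9% of all tested genes. In the second comparison 0 were higher and 4 lower, and these 4 were 14.8% of the list, against 3.15% of all tested genes lower. The median log2 fold change was 0.20 and -0.15, against 0.0029 and 0.0079 over all tested genes. Nr4a3, an orphan nuclear receptor gene, was at 1.95, 1.07 and 1.99 CPM in RE/Ovx rats 3, 5 and 8 and at 3.60, 3.67 and 5.39 CPM in NE/Ovx rats 6, 8 and 9, without overlap. Of all tested genes 6.84% were lower in RE/Ovx than in NE/Ovx rats without overlap. The log2 fold change of Nr4a3 was -1.33 (SE 0.32, adjusted p = 0.921), and -1.11 without NE/Ovx rat 9. Nr4a1 differed by -1.10 (SE 0.31) and by -0.77 without that rat, and Dusp1, a phosphatase of MAP kinases, by -0.62 (SE 0.22) and by -0.34 without it. For NE/Ovx against Sham the smallest p belonged to Dusp2 (-0.56), Csrnp1 (0.78) and Myc (-0.29), with adjusted p of 0.0725, 0.0854 and 0.147.

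Of the kinases and factors that lead to Fos transcription, 22 were tested and 0 passed in any comparison with edgeR, with 2, 1 and 4 at an unadjusted p under 0.05 in the 3 comparisons, taken as ordered above. Of all 14520 tested genes, 2975, 767 and 3710 had such an unadjusted p. Both DESeq2 fits, on 9 libraries and on the 2 groups, put Map2k3 past the adjusted threshold for NE/Ovx against Sham. The second comparison had 0 and 1 such genes and RE/Ovx against Sham 2 and 1. The counts of these fits over all genes are given with the immediate early genes. Map2k3, a kinase of p38, was at 16.5, 2.67 and 8.03 CPM in RE/Ovx rats, 1.84, 2.14 and 2.36 CPM in NE/Ovx rats and 4.83, 10.6 and 5.64 CPM in Sham rats, so the NE/Ovx rats were below all others. Of all tested genes 11.4% were lower in NE/Ovx than in Sham rats without overlap. The log2 fold change of Map2k3 was -1.73 for NE/Ovx against Sham (SE 0.57, adjusted p = 0.136) and 2.10 for RE/Ovx against NE/Ovx (SE 0.57, adjusted p = 0.921). Of the phosphatases that switch these kinases off, 7 were tested. Dusp10, which acts on p38 and JNK, rose in NE/Ovx rats, to 34.7, 21.9 and 21.7 CPM in rats 6, 8 and 9, against 11.1, 13.1 and 13.0 CPM in Sham rats 12, 7 and 8 (log2 fold change 1.07, SE 0.18, adjusted p = 0.0308). Without NE/Ovx rat 9 it was 1.19 with an adjusted p of 0.0556, and edgeR on the 2 groups did not call it. Dusp10 was also higher in RE/Ovx than in Sham rats (1.04, SE 0.18, adjusted p = 0.0148), and so was Dusp4 (1.51, SE 0.32, adjusted p = 0.0236), which edgeR on the 2 groups did not call.

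Of 36 other bZIP genes tested, 0 passed with edgeR for NE/Ovx against Sham and for RE/Ovx against NE/Ovx (13 and 6 at an unadjusted p under 0.05), and 4 rose and 5 fell for RE/Ovx against Sham. Of all 14520 tested genes, 2975 and 767 had such an unadjusted p in the first 2 comparisons. The adjusted threshold was passed by 1.23%, 0% and 8.06% of all tested genes in the 3 comparisons. For NE/Ovx against Sham 4 passed with each DESeq2 fit, Creb3l1 among them, and Creb3l1 alone with library totals, with no filter on low counts and with edgeR on the 2 groups. Over all genes DESeq2 on 9 libraries and on the 2 groups passed 998 and 885 there. Fitting edgeR on the 2 groups left 3 calls for RE/Ovx against Sham, and 546 over all tested genes. Creb3l1, a membrane-bound factor that drives collagen genes in osteoblasts, averaged 35.1 ± 8.95 CPM in RE/Ovx rats, 32.0 ± 4.76 in NE/Ovx rats and 16.7 ± 2.48 in Sham rats (SD, n = 3 each). It rose for RE/Ovx against Sham (log2 fold change 1.07, SE 0.20, adjusted p = 0.016) and was at 0.94 for NE/Ovx against Sham (adjusted p = 0.0522). Bach2, a transcriptional repressor that acts within B cells, rose by 1.59 for RE/Ovx against Sham (SE 0.42, adjusted p = 0.0482), and 9 B cell markers summed to 678 to 835 CPM in RE/Ovx rats, 550 to 941 in NE/Ovx rats and 157 to 464 in Sham rats. Their part in it was not tested.

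The smallest unadjusted p values of this list for RE/Ovx against NE/Ovx were those of clock-output genes. Dbp, an activator at D-box sites, was at 33.2, 28.3 and 32.5 CPM in RE/Ovx rats 3, 5 and 8 and at 11.3, 9.96 and 10.8 CPM in NE/Ovx rats 6, 8 and 9, a log2 fold change of 1.55 (SE 0.24, adjusted p = 0.537). Hlf, of the same subfamily, differed by 1.16 (SE 0.19, adjusted p = 0.603) and Nfil3, a repressor at the same sites, by -0.63 (SE 0.10, adjusted p = 0.537). All 3 passed the adjusted threshold with DESeq2 on 9 libraries and on the 2 groups, and Dbp did with edgeR on the 2 groups. Over all genes these fits passed 5, 151 and 1. Dbp, Hlf and Nfil3 were without overlap between the groups, and were named for their small p in this same comparison. Of all tested genes 6.84% were lower without overlap, as Nfil3 was, and the share that was higher is not given here. Leaving out NE/Ovx rat 9 moved Dbp, Hlf and Nfil3 to 1.56, 1.26 and -0.64.

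Of 19 tested osteoclast genes of the RANKL route, in which Fos acts, 0 passed with edgeR in the first 2 comparisons (5 and 1 at an unadjusted p under 0.05), with medians of -0.01 and -0.02. Of all 14520 tested genes, 2975 and 767 had such an unadjusted p. For RE/Ovx against Sham 0 rose and 3 fell, 15.8% of the list against 8.06% of all tested genes. Both DESeq2 fits called Itgb3 and Tyrobp, lower, for NE/Ovx against Sham and 0 genes for RE/Ovx against NE/Ovx. DESeq2 on 9 libraries called 5 for RE/Ovx against Sham, while limma, edgeR on the 2 groups and edgeR with library totals each called 1. Over all genes DESeq2 on 9 libraries called 1964 there, edgeR on the 2 groups 546 and edgeR with library totals 1180. Acp5, the tartrate-resistant acid phosphatase of osteoclasts, was at 305, 514 and 308 CPM in RE/Ovx rats 3, 5 and 8, at 457, 467 and 605 CPM in NE/Ovx rats 6, 8 and 9, and at 269, 419 and 490 CPM in Sham rats 12, 7 and 8. The groups overlapped, and the log2 fold change was 0.38 for NE/Ovx against Sham (SE 0.25, adjusted p = 0.432) and -0.44 for RE/Ovx against NE/Ovx (SE 0.25, adjusted p = 0.965). Calcr, the calcitonin receptor, averaged 2.88 CPM in RE/Ovx rats, 1.51 in NE/Ovx rats and 1.92 in Sham rats. It was at 4.51, 1.83 and 2.31 CPM in RE/Ovx rats 3, 5 and 8. In NE/Ovx rats 6, 8 and 9 it was at 1.03, 1.45 and 2.06 CPM, and in Sham rats 12, 7 and 8 at 0.667, 2.34 and 2.74 CPM. The groups overlapped for Calcr too. Its log2 fold change was -0.34 for NE/Ovx against Sham (SE 0.53, adjusted p = 0.763) and 0.92 for RE/Ovx against NE/Ovx (SE 0.52, adjusted p = 0.962). Nfatc1, the partner of Fos in osteoclasts, averaged 102, 108 and 93.5 CPM in RE/Ovx, NE/Ovx and Sham rats. The 3 genes that fell for RE/Ovx against Sham were Tyrobp, a signalling adaptor (-0.63, adjusted p = 0.0113), Itgb3, an integrin chain (-0.40, adjusted p = 0.0357), and Oscar, a receptor that signals with such adaptors (-1.14, adjusted p = 0.043). Tyrobp is also expressed in neutrophils and other myeloid cells and Itgb3 in megakaryocytes. In this comparison all 8 tested neutrophil markers had negative values (4 adjusted lower, median -0.79), as had all 5 tested megakaryocyte markers (1 adjusted lower, median -0.40), and their part in the fall was not tested.

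With edgeR, of 19 tested genes known as AP-1 targets 2 rose and 0 fell for NE/Ovx against Sham, 0 passed for RE/Ovx against NE/Ovx, and 3 rose and 1 fell for RE/Ovx against Sham. Of all tested genes 1.23%, 0% and 8.06% passed in these comparisons. DESeq2 on 9 libraries and on the 2 groups called 3 and 4, 0 and 0, and 9 and 7 in the same comparisons. Over all genes these 2 fits called 998 and 885, 5 and 151, and 1964 and 1472. The genes that rose with edgeR for NE/Ovx against Sham were the matrix genes of osteoblasts Col1a1 (log2 fold change 1.70, SE 0.25, adjusted p = 0.0235) and Bglap (1.72, SE 0.29, adjusted p = 0.0281), for which NE/Ovx rat 9 lay within the range of the other ovariectomized rats. Without that rat their values were 1.68 and 1.55, with adjusted p of 0.0604 and 0.0778. They rose also for RE/Ovx against Sham, by 1.74 and 1.89, with Ccnd1, a cyclin (0.69, adjusted p = 0.0197), while Plaur, the urokinase receptor, fell (-0.60, adjusted p = 0.0148). Both matrix genes are among the osteoblast markers whose sums are given above. When each of the 6 rats of a comparison was left out in turn, the calls of Col1a1 and Bglap for RE/Ovx against Sham held. The other calls named for that comparison were each lost without RE/Ovx rat 5 and without RE/Ovx rat 8, with adjusted p up to 0.149. Of the calls for NE/Ovx against Sham, that of Dusp10 was lost in 5 of 6 cases and those of Col1a1 and Bglap in 4, with adjusted p up to 0.108.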

How the data were processed

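For each of the 9 libraries the authors deposited a whole-number count per gene and an FPKM value per gene. Tools named in the submitters' notes are Trimmomatic, then HISAT2 with StringTie and Bowtie2, and DESeq, with the build Rnor_6.0, and the libraries were made from ribosome-depleted total RNA with a stranded kit. Versions and the use of strand in counting are not given in the sources used here. Reads of overlapping or antisense genes may therefore be shared. FPKM followed the counts with 1 factor per library and gene length, and was used only to compare levels between genes and in alternatives.

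Counts were fitted in R 4.3.3 with edgeR 4.0.16 (TMM, filterByExpr, quasi-likelihood test, group as the only term, all 9 libraries), checked on simulated data, and adjusted by Benjamini-Hochberg over all 14520 tested genes. CPM uses the effective library size. Calls at the study's own limits (unadjusted p under 0.05, ratio over 1.2 or under 0.83) were also counted. An exact permutation test of 3 rats against 3 cannot go below p = 0.1 and was not used. Alternatives were DESeq2 1.42.0, limma 3.58.1 on log2 of FPKM plus 1 or 0.1, other scalings and filters, and leaving out each rat. DESeq2 on 9 libraries used the 14520 tested genes. DESeq2 on the 2 groups was run without the filter on low counts, on 18095 to 18170 genes. These 2 fits thus differ in genes as well as in rats. Figures used Python 3.11.15 with matplotlib 3.10.9. Values per rat carry counting error besides the spread between rats, and totals were 12297992 to 16671533.

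The members and lists were chosen with earlier results of these data known. Named were every member, up to 3 genes per list with the smallest p in each of the first 2 comparisons, Acp5, Calcr and Nfatc1, and the 8 genes most correlated with Fos (log2 CPM, prior count 2). Egr1, Egr2, Btg2, Ier2 and Dcstamp were named after their values were seen. Promoter windows came from RefSeq tables.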

Additional observations from a re-analysis of the deposited data

How the results depend on the processing

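No paired analysis was possible because the groups share only 1 rat number, 8, which marks different animals. With other tools and settings, 0 of the AP-1 genes passed the adjusted threshold in any comparison, except Fosl2 for RE/Ovx against Sham with DESeq2 on 9 libraries (1). At the thresholds of the study, the count for NE/Ovx against Sham was 1 with DESeq2 on the 2 groups (Atf3), and that for RE/Ovx against NE/Ovx was 1 with each of the 3 limma settings (Atf3). For that comparison the genes also changed with edgeR and DESeq2 on the 2 groups, and the counts of other gene lists with DESeq2, as given beside them. The genes past the adjusted threshold for NE/Ovx against Sham, 178 with edgeR, numbered 998 with DESeq2 on 9 libraries, 885 with DESeq2 on 2 groups without a filter on low counts and 112 with limma on log2(FPKM + 1). For RE/Ovx against NE/Ovx the 0 became 5 with DESeq2 on 9 libraries, 151 with DESeq2 on 2 groups without that filter and 1 with edgeR on the 2 groups. For RE/Ovx against Sham the 1171 became 1964 with DESeq2 on 9 libraries and 546 with edgeR on the 2 groups.

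With each rat left out, the counts of genes ran between 6 and 186 for NE/Ovx against Sham, 0 and 0 for RE/Ovx against NE/Ovx, and 102 and 1763 for RE/Ovx against Sham, and those of AP-1 genes at the thresholds of the study between 0 and 4, 0 and 4, and 1 and 2. The log2 fold changes that changed sign ran between -0.23 and 0.0066 for Fosl2, -0.060 and 0.14 for Jund and -0.050 and 0.33 for Junb in NE/Ovx against Sham. They ran between -1.98 and 0.090 for Fosb, -0.41 and 0.022 for Jun and -0.24 and 0.13 for Maff in RE/Ovx against NE/Ovx, and between -0.31 and 0.075 for Atf3, -0.17 and 0.19 for Fos and -0.023 and 0.38 for Jun in RE/Ovx against Sham. The cause was not tested. With 3 rats a group, 1 rat can set a mean, and depth limits Fosl1, with 2 to 16 counts a library.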
